A study of Mus musculus with 2 samples.

Results

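Trimethylation of histone H3 at lysine 4 (H3K4me3) was examined at the genes of voltage-gated sodium channels, voltage-gated calcium channels and HCN channels in neurons sorted from the mouse small intestine. The members were the RefSeq protein-coding genes of GRCm38.p6, the assembly that the deposited peaks call mm10, with symbols of the Scn a and b series, the Cacna, Cacnb and Cacng series and the Hcn series. They numbered 44 of 21887 protein-coding genes: 10 sodium channel α, 4 sodium channel β, 10 calcium channel α1, 4 α2δ, 4 calcium channel β, 8 calcium channel γ and 4 HCN genes. The study held 1 H3K4me3 immunoprecipitate and 1 input chromatin library, both from sorted NOS1+ enteric neurons of the small intestine, and set no treatment, genotype or age against another. The sources used here do not give the labelling for the sort, the strain, the age or the number of animals. There was no replicate, so every comparison below is between genes within 1 library, and none has a test.

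Sodium channel α subunits form the pore that carries the rising phase of the action potential, and their β subunits adjust gating and membrane placement. Calcium channel α1 subunits fall into the high-voltage-activated Cav1 (L-type) and Cav2 (P/Q-, N- and R-type) families and the low-voltage-activated Cav3 (T-type) family, with α2δ and β subunits bringing the high-voltage-activated pores to the membrane. HCN channels open on hyperpolarization and pass a depolarizing pacemaker current. In the gut wall, N-type calcium channels serve transmitter release from enteric neurons, L-type channels drive smooth muscle contraction, and HCN currents are known from intrinsic sensory neurons. H3K4me3 lies mainly at active and poised start sites, so a peak marks where a start may be in use and does not measure RNA.

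The deposited list held 29924 peaks covering 28.7 Mb, at a median width of 690 bp, and its median score was 35.75. The score is the peak caller's own value, its scale is not stated, and it serves only to rank peaks of this list. All 8 general neuron markers examined had a gene-end peak, which 61.4% of all protein-coding genes had, and their widest peaks ran from 379 bp at Snap25 to 1891 bp at Elavl3, with a median highest score of 31.22. Of 5 nitrergic genes 4 had a peak: Etv1 one of 4843 bp, Npy one of 1358 bp, Gal one of 501 bp and Nos1, the gene of the sort, a single one of 183 bp inside its model, while Vip had none. Of 4 cholinergic genes 1 had a peak, of 577 bp. Markers of other cells had peaks too, to be read beside the 67% of all protein-coding genes with one: 5 of 5 markers of enteric glia (widest 912 to 6775 bp), 6 of 6 smooth muscle genes (322 to 1503 bp), 2 of 2 genes of interstitial cells of Cajal (1075 and 1505 bp), 2 of 3 endothelial genes (232 and 1501 bp), 1 of 3 leukocyte genes (333 bp) and 1 of 3 genes of retina and hair cells (901 bp). Of the skeletal muscle markers 2 of 4 had a peak, at most 464 bp wide, and of the cardiac muscle markers 0 of 3. In cells sorted together, a mark from a few cells of another type and a weak mark in the neurons cannot be told apart.

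Most of the channel genes carried H3K4me3, and most of those had it at an end of the gene model. Their highest score per gene had a median of 44.18, against 152.6 for all protein-coding genes with a peak. Counting peaks that overlapped the model with 1 kb to each side by at least 1 bp, 37 of the 44 genes had a peak, against 67% of all protein-coding genes. A gene-end peak, with at least 1 bp within 1 kb of either end of the model, was present at 29 of the 44, against 61.4% of all genes. A further 8 had internal peaks only, against 5.64% of all genes, and 7 had none, against 33%. Internal peaks, alone or beside gene-end ones, were present in 21 of the 44, against 24% of all genes. Channel genes are long, with a median model length of 96.6 kb against 17.2 kb for all protein-coding genes, and longer models can hold more internal peaks.

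Set against genes of like length, the excess of channel genes with any peak or with an internal peak was smaller. The excess with a gene-end peak held only at 10 to 50 kb, and the share lay below that of like-sized genes in the longer ranges. At 50 to 100 kb each of these shares lay below. Of 16 channel genes of 10 to 50 kb, 13 had a peak, against 74.9% of all genes of that length, 12 a gene-end peak, against 68.6%, and 6 an internal peak, against 24.5%. Of 7 channel genes of 50 to 100 kb, 4 had a peak, against 84.9%, 3 a gene-end peak, against 75.4%, and 2 an internal peak, against 39.2%. Of 13 channel genes of 100 to 300 kb, 12 had a peak, against 91%, 8 a gene-end peak, against 77.9%, and 8 an internal peak, against 55.7%. All 8 channel genes over 300 kb had a peak, against 93.5%, 6 a gene-end peak, against 78.5%, and 5 an internal peak, against 68.2%. The share with an internal peak thus lay near that of like-sized genes among the longest models. Internal peaks without a gene-end peak stood at 1 of 16 against 6.29%, 1 of 7 against 9.5%, 4 of 13 against 13.1% and 2 of 8 against 15.1% in these ranges of length.

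The 44 models held 78 peaks. The median width of the 36 gene-end peaks was 1191 bp, against 1190 bp for gene-end peaks of all protein-coding genes, and their median score was 40.12, against 115.85. The median width of the 42 internal peaks was 463 bp, against 330 bp over all genes, and their median score was 14.1, against 9.48. Gene-end peaks of channel genes thus had the usual width at a lower score. The lower score was not particular to them. The median of the highest gene-end score per gene was 44.18 for channel genes and 31.22 for the 8 general neuron markers. Over all protein-coding genes with a gene-end peak it was 153.41. In terms of the highest score per gene, 25 of the 44 were among the top-scoring 50% of peaks, against 57.8% of all genes, but 2, Cacna1c and Cacna1d, among the top-scoring 25%, which began at 140.81, against 37.3% of all genes. Of gene-end peaks taken alone, 20 members had one in the top-scoring 50%, against 53.1% of all genes, and 0 in the top-scoring 25%, against 34.5%. The scores that placed Cacna1c and Cacna1d in the top-scoring 25% came from an internal peak at the start of an overlapping neighbour, described below.

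**Figure D1:**
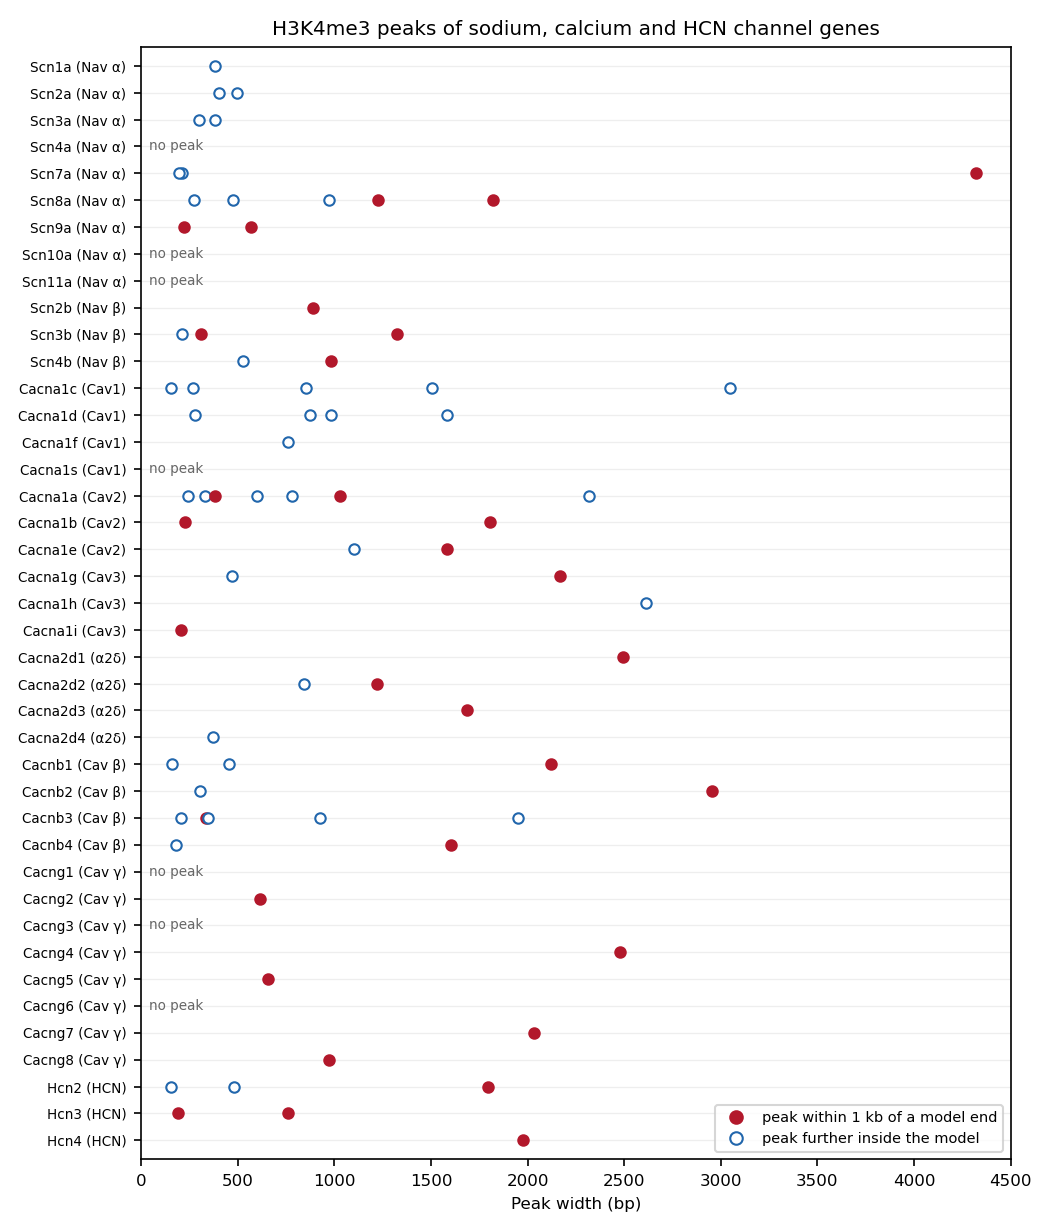
Width of each H3K4me3 peak (bp, horizontal axis) of 41 of the 44 channel genes, 1 row per gene in order of subunit class. Filled circles are peaks within 1 kb of an end of the gene model and open circles are peaks further inside; 7 genes have no peak, the 4 members of Cav1 lack a filled circle, and Scn7a stands furthest to the right at 4319 bp.

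**Figure D2:**
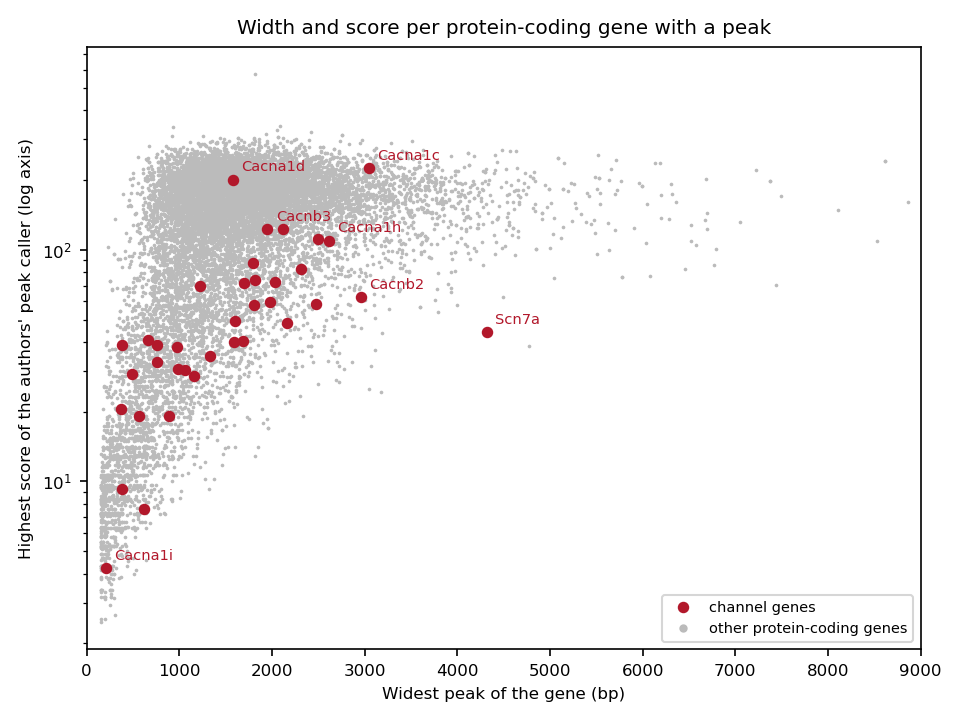
Widest peak of a gene (bp) against the highest score of any of its peaks (log axis), for the 37 channel genes with a peak and all other protein-coding genes with a peak. The channel genes lie mostly in the lower part of the cloud, and the 2 among the highest scores, Cacna1c and Cacna1d, take them from the start of an overlapping gene.

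Among sodium channel α genes, 4 of 10 had a gene-end peak, 3 had internal peaks only and 3 had none. The shares of all protein-coding genes were 61.4%, 5.64% and 33%. Scn7a, which encodes the sodium-sensing channel Nax known from glia and Schwann cells, had the widest peak of all members, 4319 bp with a score of 44.18, rank 159 by width among 14665 genes with a peak but rank 12299 by score. It covered the annotated start and reached 677 bp before it and 3642 bp after it. Enteric glial markers carried wide peaks in the same library, with Sox10 at 6775 bp and Foxd3 at 5004 bp, and their part in the Scn7a peak was not tested. Scn8a, which encodes Nav1.6 of the axon initial segment and nodes of Ranvier, had 5 peaks. The one at its first start was 1819 bp wide with a score of 74.2, the highest of the class. A peak of 970 bp (score 54.91) lay 61.7 kb before the upper end, and one of 1225 bp (score 29.33) lay just beyond the 3′ end. The mark at Scn8a was thus not limited to its start.

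Scn9a, which encodes Nav1.7 of peripheral neurons, had narrow peaks of 570 and 224 bp at its start, with scores of 19.16 and 10.61. Scn1a, Scn2a and Scn3a, the sodium channels best known from central neurons, had no peak within 1 kb of a model end. Scn1a held 1 peak of 383 bp (score 38.83) 30.7 kb after its annotated start. Scn3a held peaks of 384 and 302 bp, scores 9.32 and 7.18, the second 1.69 kb inside the upper end. Scn4a of skeletal muscle and Scn10a and Scn11a, which encode Nav1.8 and Nav1.9 of peripheral sensory neurons, had no peak, and the nearest one lay 16.3, 28.9 and 68.8 kb from the model.

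All 4 sodium channel β genes had a gene-end peak, against 61.4% of all protein-coding genes. Scn3b had a peak of 1326 bp (score 34.77), Scn4b one of 982 bp (30.59) and Scn2b one of 890 bp (19.16). Scn2b and Scn4b lie 8.6 kb apart and each had its own peak over its start, with none between them more than 1 kb from both models. The pore-forming genes stand in similar runs on chromosomes 2 and 9. In the run of Scn1a, Scn9a and Scn7a, with gaps of 39.2 and 38.3 kb, the neighbours differed: an internal peak of 383 bp, start peaks of at most 570 bp, and a start peak of 4319 bp. Scn10a and Scn11a lie 34.4 kb apart, and neither gene nor the gap between them had a peak.

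Of the Cav1 genes 0 of 4 had a gene-end peak, beside 61.4% of all genes, and 3 of the 4 had internal peaks, beside 24%. With windows of 2500 bp Cacna1f and Cacna1s counted as having one, and Cacna1c and Cacna1d did not. Cacna1c encodes the L-type pore Cav1.2 of smooth muscle, heart and neurons, and held 5 peaks. The widest, 3049 bp with a score of 89.77, covered the annotated start that lies 88.9 kb into the model and reached 998 bp before it and 2051 bp after it. The annotated start near the model's 5′ end had no peak within 20.1 kb, and the one 439.4 kb into the model none within 163.9 kb. Another peak of Cacna1c, 854 bp with a score of 30.59, lay 5.97 kb from the 3′ end. Cacna1d encodes the neuronal and endocrine L-type pore Cav1.3. Its start at the 5′ end had no peak within 10.4 kb, while peaks of 875 bp (score 54.36) and 985 bp (31.28) lay over and just after the start 137.7 kb into the model. In both genes the marked start was thus the inner one. Smooth muscle markers had peaks of at most 1503 bp with scores of at most 32.62, and their part in the Cacna1c peak was not tested.

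The highest-scored peaks in both models belonged in position to a neighbour. A peak of 1505 bp (score 224.61) inside Cacna1c covered the start of Dcp1b, and one of 1581 bp (score 200.92) inside Cacna1d covered the start of Dcp1a. Dcp1a and Dcp1b encode mRNA-decapping subunits, and each starts inside the 5′ part of its channel gene on the opposite strand. Without peaks that have an end of another protein-coding gene within 1 kb, an alternative chosen after seeing the data, the highest score was 89.77 at Cacna1c and 54.36 at Cacna1d, and no channel gene reached the top-scoring 25%. The retinal Cacna1f held 1 peak of 760 bp (score 32.93), 3.14 kb after its start, and another lay outside the window, 1.7 kb before the start. Cacna1s, the L-type pore of skeletal muscle, had none over its model, and the nearest, 247 bp wide with a score of 2.93, lay 1.3 kb outside it.

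The marked and unmarked starts of Cacna1c, Cacna1d and Scn2a are shown because in these 3 genes the peak lay at an inner start while the first annotated start had none. Each line gives RefSeq sequence of GRCm38.p6, with 250 bases before the start and 50 from it, read 5′ to 3′ on the strand of the gene, and capitals mark CpG dinucleotides.
Cacna1c inner start (chr6:119108446-119108745, minus strand): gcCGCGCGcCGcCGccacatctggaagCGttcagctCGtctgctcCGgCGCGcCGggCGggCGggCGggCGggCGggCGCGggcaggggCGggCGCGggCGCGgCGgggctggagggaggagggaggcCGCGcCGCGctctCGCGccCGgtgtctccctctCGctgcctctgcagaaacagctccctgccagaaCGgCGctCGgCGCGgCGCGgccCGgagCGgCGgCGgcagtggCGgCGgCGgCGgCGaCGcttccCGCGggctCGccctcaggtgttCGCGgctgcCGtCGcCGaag
Cacna1c first start (chr6:119196360-119196659, minus strand): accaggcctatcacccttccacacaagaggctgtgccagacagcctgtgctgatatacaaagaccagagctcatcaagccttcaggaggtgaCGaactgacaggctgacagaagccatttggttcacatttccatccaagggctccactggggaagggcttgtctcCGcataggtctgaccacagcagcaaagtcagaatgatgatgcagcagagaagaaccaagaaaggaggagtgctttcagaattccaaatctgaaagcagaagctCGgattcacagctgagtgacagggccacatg
Cacna1d inner start (chr14:30353437-30353736, minus strand): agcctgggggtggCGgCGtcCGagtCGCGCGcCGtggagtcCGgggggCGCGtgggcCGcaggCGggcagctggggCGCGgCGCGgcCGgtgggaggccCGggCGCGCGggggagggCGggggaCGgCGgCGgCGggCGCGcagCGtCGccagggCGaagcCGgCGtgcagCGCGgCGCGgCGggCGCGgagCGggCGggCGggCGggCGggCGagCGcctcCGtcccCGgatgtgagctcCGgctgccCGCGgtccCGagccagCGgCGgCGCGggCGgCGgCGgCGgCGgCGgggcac
Cacna1d first start (chr14:30491107-30491406, minus strand): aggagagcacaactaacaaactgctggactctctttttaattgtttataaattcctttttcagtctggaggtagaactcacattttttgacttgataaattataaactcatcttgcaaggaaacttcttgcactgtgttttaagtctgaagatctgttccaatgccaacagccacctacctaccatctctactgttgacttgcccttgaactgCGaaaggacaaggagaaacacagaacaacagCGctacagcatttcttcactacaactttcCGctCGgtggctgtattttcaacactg
Scn2a inner start (chr2:65668436-65668735, plus strand): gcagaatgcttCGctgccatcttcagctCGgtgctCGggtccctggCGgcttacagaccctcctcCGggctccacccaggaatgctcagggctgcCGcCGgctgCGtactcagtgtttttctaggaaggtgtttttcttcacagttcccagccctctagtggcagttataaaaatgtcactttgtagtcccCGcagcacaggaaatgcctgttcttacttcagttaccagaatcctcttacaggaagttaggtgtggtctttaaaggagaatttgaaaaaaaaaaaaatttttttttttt
Scn2a first start (chr2:65620519-65620818, plus strand): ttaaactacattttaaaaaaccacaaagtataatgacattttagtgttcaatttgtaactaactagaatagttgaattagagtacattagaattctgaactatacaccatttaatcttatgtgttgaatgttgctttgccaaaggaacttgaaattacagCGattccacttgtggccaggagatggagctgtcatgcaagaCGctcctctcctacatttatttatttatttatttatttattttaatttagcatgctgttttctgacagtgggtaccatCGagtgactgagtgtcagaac

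The inner starts of Cacna1c and Cacna1d held 57 and 63 CpGs in 300 bases, against 3 and 4 at their first starts. At Scn2a, which encodes Nav1.2, the inner start held 9 CpGs against 3 at the first. That start fell in a gap between peaks of 405 bp (score 28.98) and 494 bp (20.45), 94 and 34 bp away, which became 1 region of 1026 bp when peaks closer than 1 kb were merged.

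Of the 32 channel genes with annotated starts in the RefSeq promoter table, 9 had starts more than 2 kb apart. The inner start alone had a peak within 1 kb in 3 of the 9 (Cacna1c, Cacna1d and Scn2a), against 15.3% of 1287 protein-coding genes with such starts. The first start alone was marked in 4 (Cacnb1, Cacnb2, Cacng5 and Scn8a), against 33.1%, and both in 2 (Cacnb3 and Cacnb4), against 34.5%. None of the 9 was without a marked start, against 17.1%. At Cacnb4 the inner mark was a single peak of 182 bp (score 7.32), far below the 1604 bp and 49.34 at its first starts. With 9 genes, these shares are a description only.

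**Figure D3:**
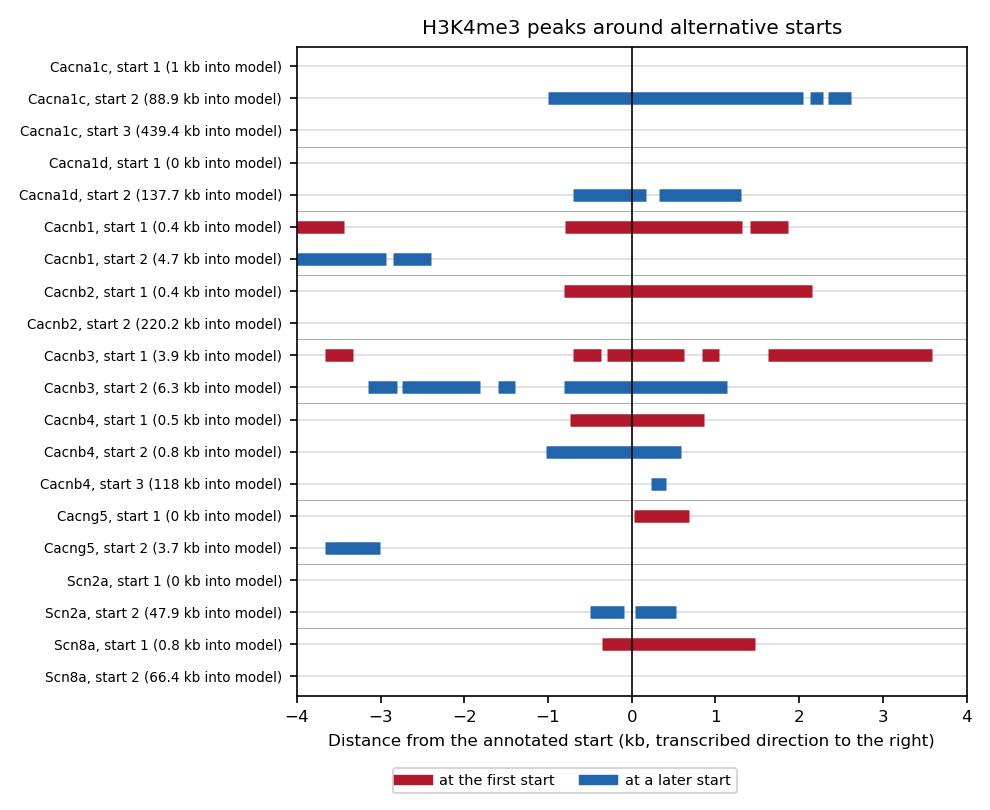
Peaks within 4 kb of each annotated start of the 9 channel genes with starts more than 2 kb apart, drawn in the direction of transcription with the start at 0 (distance in kb). Red bars are peaks around a gene's first start and blue bars those around a later one; Cacna1c, Cacna1d and Scn2a have bars only at an inner start, and the same peak can appear around 2 neighbouring starts.

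All 3 Cav2 genes had gene-end peaks, against 61.4% of all genes, and 2 of them also had internal ones, against 24%. Cacna1b, the N-type pore of transmitter release, had a peak of 1805 bp (score 57.91) over its start, reaching 459 bp before it and 1346 bp after it. Cacna1a, the P/Q-type pore, held 7 peaks, more than any other member. Its widest, 2316 bp with a score of 68.26, lay 75.6 kb above the lower end of the model, and the highest-scored, 1028 bp with 82.75, lay 864 bp inside the upper end, where the noncoding gene Gm39212 also ends. Neither was tied to an annotated start here. Cacna1e, the R-type pore, had a peak of 1585 bp (score 39.89) at the upper end of the model and one of 1100 bp (34.39) at the annotated start 158.9 kb into the model.

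Among the Cav3 genes, which encode T-type pores, Cacna1h had the highest-scored peak, 2613 bp with 109.35. It lay 1776 bp inside the upper end of the model, so it counted as internal at 1 kb and as a gene-end peak with windows of 2500 bp. Cacna1g had a peak of 2167 bp (score 48.15) at its upper end. Cacna1i had a single peak of 205 bp (score 4.23), the lowest highest score of the 37 members with a peak. The 3 T-type genes thus ranged from among the widest to the narrowest mark of the members.

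Of the auxiliary calcium channel genes 12 of 16 had a gene-end peak, and of the calcium channel pores 5 of 10, beside 61.4% of all genes, and the difference of these counts was not tested. The α2δ genes include those of the subunits bound by gabapentin. In this class, Cacna2d1 had a peak of 2492 bp (score 111.29), Cacna2d3 one of 1685 bp (40.34) and Cacna2d2 one of 1223 bp (69.91). Each of these peaks lay over the annotated start. Cacna2d2 also had a peak of 845 bp (score 52.27) 1.91 kb inside its 3′ end. Cacna2d4, known from the retina, had only a peak of 374 bp (score 20.46), which covered the start of Lrtm2, a gene inside its model.

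All 4 calcium channel β genes had a gene-end peak, against 61.4% of all genes. The class median was 2035.5 bp for the widest peak per gene. Cacnb2 had 2957 bp with a score of 62.48 over its first start and none within 49.7 kb of its start 220.2 kb into the model. Cacnb1 had 2120 bp with 122.59, a peak that overlapped the 5′ end of the model of the ribosomal protein gene Rpl19. Without peaks near an end of another protein-coding gene, Cacnb1 kept an internal peak of 159 bp (score 4.57) and no gene-end peak. Cacnb3, the subunit commonly paired with N-type pores, held 5 peaks in a row, of which the widest, 1951 bp with a score of 123.14, covered its second annotated start and one of 924 bp with 39.89 its first. With peaks closer than 1 kb merged, Cacnb3 had a region of 4289 bp. Its gene-end peak, 338 bp with a score of 5.29, was among the weakest.

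The calcium channel γ genes include those of the TARP subunits of AMPA receptors. Of the 8 γ genes, 5 had a gene-end peak, against 61.4% of all genes, and none an internal one, against 24%. Cacng4 had 2476 bp with a score of 58.26 and Cacng7 2032 bp with 72.47. Cacng5 had 659 bp (40.92) and Cacng2, which encodes stargazin, 617 bp (7.63), both beside the start without covering it. Cacng8 had a peak of 972 bp (38.12) at its 3′ end and none within 20.8 kb of its start. Among 21 genes with a gene-end peak and a known strand, only Cacng8 had its peak at the 3′ end alone. That peak also overlapped an end of the miRNA gene Gm23450. Cacng1 of skeletal muscle, Cacng6 and Cacng3 had no peak, with the nearest 76.4, 7.7 and 170.9 kb from the model.

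All 4 HCN genes had a gene-end peak, against 61.4% of all protein-coding genes. Hcn4 had 1978 bp with a score of 59.72 and Hcn2 1794 bp with 87.38, each over its start, and Hcn3 759 bp with 38.83. Hcn2 held in addition 2 narrow internal peaks of 153 and 478 bp, and the Hcn4 peak lay also within 1 kb of an end of Rec114. The 2 widest peaks of the class thus lay over annotated starts.

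**Figure D4:**
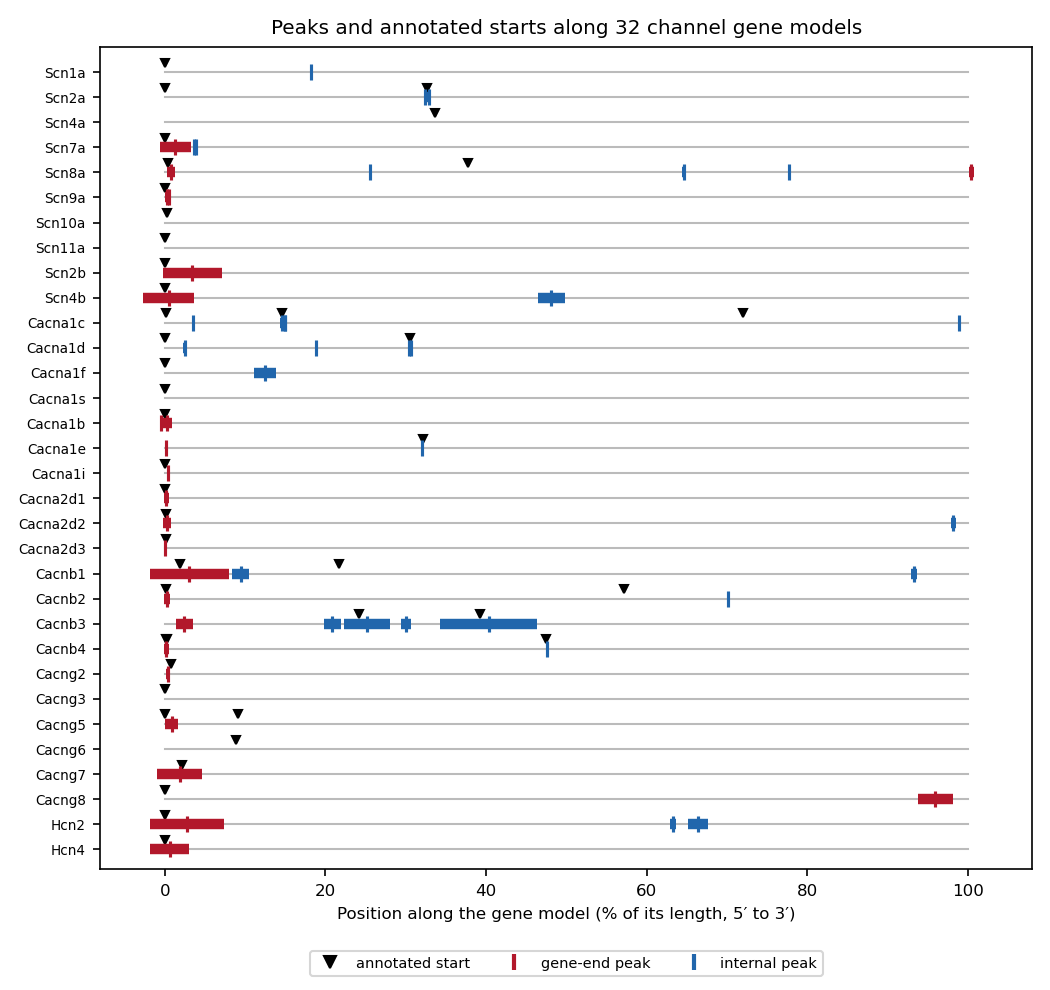
Positions of peaks along the 32 channel gene models with a known strand, as a percentage of model length from the 5′ end (0) to the 3′ end (100). Red marks gene-end peaks, blue internal peaks and black triangles annotated starts; red marks gather at 0, with 3′ marks at Scn8a and Cacng8, and Scn4a, Scn10a, Scn11a, Cacna1s, Cacng3 and Cacng6 carry none.

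The 32 genes had 43 annotated starts, of which 26 had a peak within 1 kb, against 62.6% of the starts of all protein-coding genes. By gene, 23 of the 32 had a marked start, against 63%. Of the 31 internal peaks of these genes, 11 lay within 1 kb of one of the gene's own starts and 2 at a start of another protein-coding gene, while 18 had no annotated coding start within 1 kb. Of the 24 gene-end peaks, 20 lay within 1 kb of an own start. A covering peak reached further after than before the start at 16 of 21 covered starts, against 81.6% of covered starts of all genes, with medians of 734 bp before and 896 bp after, against 473 and 1020 bp over all genes.

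Channel starts rich in CpG were all marked, and those poor in CpG mostly were not. The CpG ratio, the number of CpGs over that expected from the C and G content of the 300 bases, had a median of 0.79 at the 26 marked starts (0.14 to 1.18), against 0.3 at the 17 unmarked ones (0.11 to 0.56). All 19 starts with a ratio of at least 0.6, in 18 genes, had a peak: 7 of 7 from 0.6 to below 0.8, where 93.5% of starts of all protein-coding genes had one, and 12 of 12 from 0.8, against 98%. Below 0.6, 7 of 24 channel starts had a peak. There the channel starts and all starts stood at 2 of 4 against 72.7% from 0.4 to below 0.6, 4 of 14 against 31.6% from 0.2 to below 0.4, and 1 of 6 against 8.48% below 0.2. The shares with a peak thus followed CpG content much as in all genes.

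Median scores rose with CpG content from a ratio of 0.2 upward, from 19.16 to 66.2 at marked channel starts. Over marked starts of all genes they rose from 49.61 to 172.86, so the channel scores lay lower. At the 19 CpG-rich channel starts the peak scores had a median of 59.72 and reached from 4.23 at Cacna1i to 123.14 at Cacnb3, against a median of 165.78 over 9744 marked starts of all genes with a ratio of at least 0.6. None of the 19 exceeded the median of all starts in its own range of CpG ratio, and 72.3% of the 9744 scored above the highest of them. Their median width was 1794 bp, against 1578.5 bp. By range, the median width was 982 bp against 1455 bp from 0.6 to below 0.8. From 0.8 it was 1885 bp against 1666.5 bp. The lower scores thus went with narrower peaks in the first range and not in the second.

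**Figure D5:**
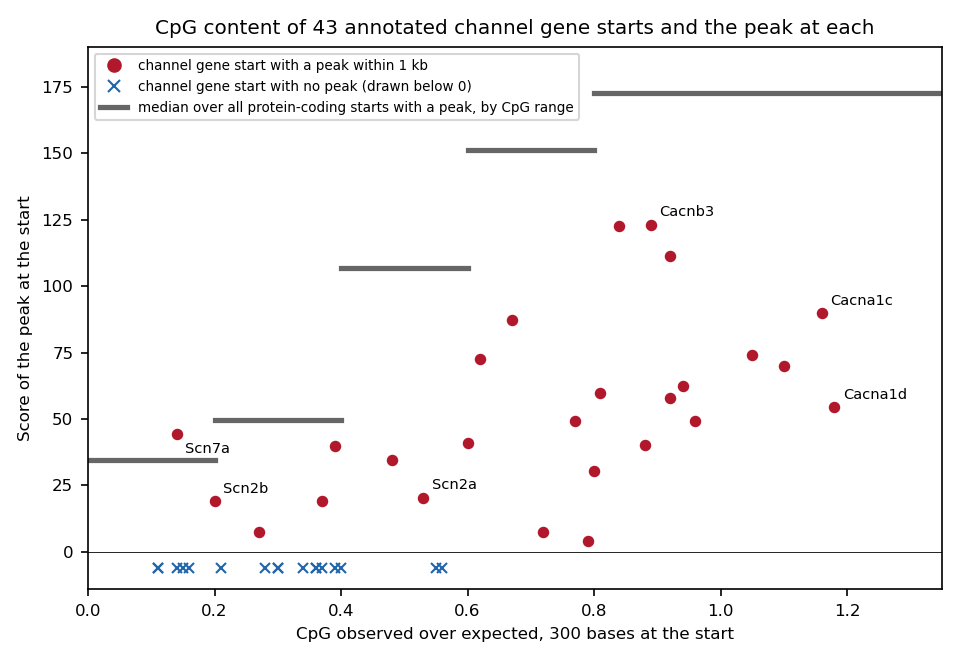
CpG observed over expected in the 300 bases at each of 43 annotated channel gene starts (horizontal axis) and the score of the peak within 1 kb (vertical axis). Red circles are starts with a peak, blue crosses starts without one (drawn below 0), and grey bars the median score of all protein-coding starts with a peak in each range of the ratio; no circle from 0.6 upward reaches its grey bar.

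The start of Scn7a stood apart, with 3 CpGs and a ratio of 0.14 under the widest peak of the members. Of the 398 starts of all genes with a ratio below 0.2 and a peak, 8 others, in 5 other genes, had one at least as wide. The starts of Scn7a and of Scn11a, which had no peak within 68.8 kb and a ratio of 0.16, are shown because both held 3 CpGs and their marks were opposite. They are given as above, with CpG in capitals.
Scn7a start (chr2:66784861-66785160, minus strand): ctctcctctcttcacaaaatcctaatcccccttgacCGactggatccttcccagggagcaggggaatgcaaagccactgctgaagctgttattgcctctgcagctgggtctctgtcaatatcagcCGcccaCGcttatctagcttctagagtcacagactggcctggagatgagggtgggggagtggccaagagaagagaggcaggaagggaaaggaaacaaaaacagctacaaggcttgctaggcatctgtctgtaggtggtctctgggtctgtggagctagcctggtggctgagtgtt
Scn11a start (chr9:119825407-119825706, minus strand): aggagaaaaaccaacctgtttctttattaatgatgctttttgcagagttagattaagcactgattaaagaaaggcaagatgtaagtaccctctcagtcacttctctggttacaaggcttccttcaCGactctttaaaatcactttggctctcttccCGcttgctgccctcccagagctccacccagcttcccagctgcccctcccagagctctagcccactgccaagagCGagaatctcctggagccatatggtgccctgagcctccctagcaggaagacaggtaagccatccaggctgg

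Short motifs were searched on both strands of the same 300 bases. The GC box GGGCGG was present at 16 of 26 marked channel starts and 2 of 17 unmarked ones, against 66.6% and 12.1% of the marked and unmarked starts of all protein-coding genes and 46.2% of all their starts. TATAAA was present at 2 of the 43 starts, the marked inner start of Scn2a and the unmarked first start of Cacna1d, and at 12.6% of all starts. The cyclic AMP response element TGACGTCA was present at 0 of 43, against 2.23% of all starts. Of 2 stretches of the element bound by the repressor REST, TCAGCACC was present at 0 of 43, against 1.69%, and GGACAG at 7 of 43, against 22.3%.

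Genes listed beside these channels were mostly marked. The list held partners of the sodium, calcium and HCN channels, and also genes of sodium leak, intracellular calcium release and sperm channels. Of the 41 matched genes of this list 37 had a peak over the model and 33 a gene-end peak, to be read beside the 67% and 61.4% of all protein-coding genes. Of 13 sodium channel partners, such as the intracellular FGFs, ankyrins and neurofascin, 13 had a peak, with Fgf11 the widest at 3677 bp. Their median length was 290.8 kb, and of all genes of 100 to 300 kb 91% had a peak. Of 12 calcium channel partners, the RGK proteins, STAC proteins and calmodulins among them, 12 had a gene-end peak. Of 6 genes of intracellular calcium release 5 had a gene-end peak, the widest at Itpr3 with 3171 bp. The sodium leak genes Nalcn (802 bp) and Unc80 (1232 bp) had gene-end peaks and Unc79 an internal one of 1405 bp. Those without a peak were Kcne2 and the sperm channel genes Catsper1, Catsper3 and Catsper4.

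The split between gene-end and internal peaks rested on the distance of 1 kb. The gene-end peaks nearest to the limit lay 864 bp (Cacna1a), 814 bp (Scn3b) and 752 bp (Scn9a and Hcn3) from an end. The nearest internal ones lay 1361 bp (Cacnb1), 1542 bp (Scn3b), 1685 bp (Scn3a) and 1776 bp (Cacna1h) from an end.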

How the data were processed

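The deposited peak list gave each peak of the H3K4me3 library a position and a score. Per the file headers, the authors called peaks with MACS2 on a paired-end library, and BWA, Picard, MACS2 and mm10 are named in the submitters' processing notes. The sources used here give neither versions, threshold and duplicate handling nor the scale of the deposited score. The input library was not analysed here. Sequencing depth is unknown, so no interval was computed and a missing call does not show absence of the mark. Low depth would lose and split weak peaks first.

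Peaks were intersected with RefSeq gene models and annotated starts, both on GRCm38.p6, in Python 3.11.15, with at least 1 bp of overlap. Start positions and strands came from the RefSeq promoter table, which held 32 of the 44 members. Among those not in it were Scn3a, Scn3b, Cacna1a, Cacna1g, Cacna1h, Cacna2d4, Cacng1, Cacng4 and Hcn3. The overlap code was tested on simulated peaks. Medians are over genes or peaks with a value. The members and gene lists were chosen with earlier results of these data known. All members may be named, and of listed genes the 3 widest gene-end peaks and those without a peak. The other listed genes named, among them the nitrergic and sodium leak genes and Snap25, were named after their values were seen. A few genes are counted in their groups but not reported here by name. One listed symbol, Nalf1, was not matched. CpG ranges, the 2 kb separation of starts and the examples beside them were chosen after seeing the data. Alternatives were score thresholds, other windows, peak midpoints, a width minimum of 300 bp, merged peaks and neighbouring ends.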

Additional observations from a re-analysis of the deposited data

How the results depend on the processing

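The counts of 37 members with a peak, 29 with a gene-end peak and 8 with internal peaks only stayed within 1.5 times under windows of 500 bp, peak midpoints, peaks at least 300 bp wide and merged peaks. Among the top-scoring 25% of peaks, 2 members had a peak, 0 a gene-end peak and 2 internal peaks only. Among the top-scoring 50% and with windows of 2500 bp, 5 had internal peaks only. Counting only gene-end peaks with no end of another gene, noncoding ones included, within 1 kb left 17 members. Merging changed the widest width by over 1.5 times at Cacnb3, Scn3b (2877 bp), Scn2a and Scn9a (878 bp), and with windows of 2500 bp the highest score was 51.18 at Cacna1f and 77.39 at Cacnb4. Without peaks near an end of another protein-coding gene, an alternative added after seeing the data, Cacnb1 kept no gene-end peak, and Cacng7 and Hcn4 kept none. The median of the widest peak per member stayed within 1.5 times in every alternative. The median of the highest score did so with windows of 500 and 2500 bp, peak midpoints and without neighbouring ends. It was not computed for the score thresholds, the width minimum or merged peaks. No paired analysis was possible because there was 1 library. Depth is unknown, so weak marks below the caller's threshold could not be seen.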
